A study of Mus musculus with 12 samples.

Results

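The miR-99/100 and miR-125 families were followed in extracellular vesicles from mouse plasma. The members are the arms of miR-99a, miR-99b, miR-100, miR-125a and miR-125b listed by name: 10 of 10 were found in the deposited count table, out of 1915 mouse names. The table writes them with the prefix mmu-, for mouse, which is mostly left out here. The BDL group (6 libraries) came from male C57BL/6J mice taken 8 days after ligation of the bile duct, an operation that blocks the outflow of bile and damages the liver. The sham group (6 libraries) came from male C57BL/6J mice taken 8 days after a control operation. No transgene, drug or age is named for either group, and the series text speaks of 6 animals per group. The vesicles were collected with a precipitation reagent (ExoQuick), and a tissue label that names liver stands beside a site label that names extracellular vesicles.

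MicroRNAs are cut from a hairpin whose sides give a 5p and a 3p arm. Usually 1 arm is loaded into Argonaute and kept, and the other is degraded. The kept arm binds messenger RNAs through its seed, bases 2 to 8. miR-125 is the vertebrate relative of lin-4, the Caenorhabditis elegans regulator of developmental timing, and miR-99 and miR-100 are known to target mTOR, the growth kinase. In both families the 5p arm is the one usually kept. The hairpins sit beside let-7 hairpins in 3 clusters.

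The mature sequences show how closely the members are related, and which arms share a seed (capitals; 5′ to 3′, RefSeq, GRCm38.p6; all 10 members matched). The first 3 have the seed of the miR-99/100 family, the next 3 the miR-125 seed, which miR-351-5p (not a member) also has. The remaining 5 member lines are 3p arms, followed by miR-351-3p.
miR-99a-5p: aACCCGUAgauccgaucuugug
miR-100-5p: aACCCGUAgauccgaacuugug
miR-99b-5p: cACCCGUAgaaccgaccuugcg
miR-125a-5p: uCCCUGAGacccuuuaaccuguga
miR-125b-5p: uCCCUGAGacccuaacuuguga
miR-351-5p: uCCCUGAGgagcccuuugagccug
miR-99a-3p: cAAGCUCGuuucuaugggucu
miR-99b-3p: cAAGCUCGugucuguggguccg
miR-125a-3p: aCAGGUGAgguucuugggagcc
miR-125b-1-3p: aCGGGUUAggcucuugggagcu
miR-125b-2-3p: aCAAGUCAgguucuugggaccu
miR-351-3p: gGUCAAGAggcgccugggaac
miR-100-5p and miR-99a-5p differ by 1 base, A16U, counted from the 5′ end of miR-100-5p. Reads with a mismatch there could be given to either name, and the mismatch limit is not given in the sources used here, so the split between these names is uncertain. miR-100-5p and miR-99b-5p differ at 4 bases (A1C, U11A, A16C and U21C), all outside the seed. miR-99a-3p and miR-99b-3p also share a seed, whereas the 3p arms of miR-125a, miR-125b-1 and miR-125b-2 have 3 different seeds. All members are 21 to 24 bases long, and no length correction was made. Levels, shares and ratios between names are in reads. How evenly adapter ligation and PCR took up the different sequences was not tested, so they need not be proportions of molecules.

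The hairpins lie in 3 clusters, all on the plus strand (GENCODE M21, GRCm38). The tightest is on chromosome 17, where Mir99b (17830188 to 17830257), Mirlet7e (17830352 to 17830444) and Mir125a (17830812 to 17830879) fall within 692 bases of Spaca6. Mir99b and Mirlet7e are intronic, and Mir125a overlaps an annotated exon. On chromosome 16, Mir99a (77598936 to 77599000), Mirlet7c-1 (77599657 to 77599750) and Mir125b-2 (77646273 to 77646343) lie in introns of the non-coding host Mir99ahg. On chromosome 9, Mir100 (41531425 to 41531504), Mirlet7a-2 (41536716 to 41536811) and Mir125b-1 (41581926 to 41582002) lie in introns of a non-coding host. miR-125b-5p is the same sequence from both chromosome 9 and chromosome 16, so its counts cannot be given to 1 locus, while its 3p names tell the loci apart.

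Library totals ran from 121003 to 3506914 counts in BDL and from 659302 to 2684636 in sham. The shallowest library was BDL 4, and a count of 0, which allows 3 counts, allows 24 CPM there (CPM are counts relative to library size, scaled by edgeR's trimmed mean, TMM) and 0.624 CPM in BDL 1, the deepest. Sample codes end in 24 or 26, with 3 libraries of each group per ending, and what the ending stands for is not given. BDL libraries ending in 26 were the shallow ones. The codes' first digit is shared by 2 libraries of a group, 1 of each ending, and its meaning is not given either. If it marks an animal, n is 3 per group and not 6 for every SD and p-value here. Deviations from the group means had a median r of -0.37 over 6 pairs with the same digit, and of -0.16 over 24 other pairs within a group. All same-digit pairs join libraries of different endings, as only some of the other pairs do. These values therefore cannot decide whether the digit marks an animal. With the 2 libraries of a digit summed, 3 against 3, miR-99b-3p and miR-125a-3p were still higher (log2 fold changes 1.93 and 1.19, edgeR adjusted p = 0.000407 and 0.0035), while an exact permutation test of a ratio could then not pass. With TMM, BDL had 84 higher and 62 lower names of 341 tested, and with upper-quartile scaling 63 higher and 80 lower. The libraries also differed in markers of their sources: hepatocyte markers were higher in BDL, and blood cell markers mostly lower. Summed hepatocyte markers (4 of 5 names listed in the table; miR-122-5p leads them) ran from 74747 to 327680 CPM in BDL and from 4013 to 25209 in sham, and 2 of 3 tested rose while 0 fell. Summed red cell markers (6 of 6 in the table; miR-486a-5p leads them) ran from 124876 to 378389 CPM in BDL and from 358819 to 556218 in sham, with overlap. Of 5 tested 3 fell, but miR-486a-5p did not pass (log2 fold change -0.49, edgeR adjusted p = 0.162). Leukocyte markers (5 of 5) ran from 562.5 to 2214 in BDL and from 2805 to 6421 in sham, with 3 of 5 lower. The remaining lists mostly moved the same way as the leukocyte list. Platelet and endothelial markers (2 of 2) ran from 631.4 to 2619 in BDL and from 3151 to 8883 in sham, both lower. Stellate cell and fibroblast markers, which are also found in other mesenchymal cells (4 of 4), summed to 1048 to 2104 in BDL and 2279 to 3201 in sham, with 2 higher and 1 lower. Striated muscle markers (5 of 5) summed to 639.4 to 1740 in BDL and 1147 to 2130 in sham, with 3 of 4 tested lower, and neural markers (3 of 3) to 1559 to 2746 in BDL and 3428 to 6161 in sham, with the 1 tested name lower. No listed marker found in the table was at 0 in every library. The part of these shifts in the results below was not tested, and fewer vesicles from a source cannot be told apart from less RNA per vesicle.

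Most reads of the families were miR-99a-5p. Together the members took 2.24 ± 0.775% of mouse counts in BDL libraries and 2.83 ± 0.71% in sham libraries (± is the SD over 6 libraries here and below, unless called SE). miR-99a-5p made up 76.1 ± 8.61% of member counts in BDL and 83.5 ± 2.7% in sham. The 3p arms together were a minor share, 0.0399 ± 0.0102% of counts in BDL (0.026% to 0.0544%) and 0.0157 ± 0.00306% in sham (0.0119% to 0.0202%), without overlap. The miR-125 names took 0.194 ± 0.0309% in BDL and 0.23 ± 0.059% in sham. By mean CPM, miR-99a-5p was the 5th most abundant mouse name in BDL and the 3rd in sham. Above it, miR-486a-5p and miR-486b-5p had identical values (means of 278640 CPM in BDL and 392088 CPM in sham for each). The same reads thus appear to be counted under both names. These ranks, and the totals behind every share of counts given here, include both. The other 4 5p arms had mean levels of 762.9 to 1573 CPM in BDL and 1065 to 1255 CPM in sham. Their order was miR-99b-5p, miR-100-5p, miR-125a-5p and miR-125b-5p in BDL, and miR-99b-5p, miR-125b-5p, miR-125a-5p and miR-100-5p in sham. Neighbours in either order differed by less than the larger SD of the pair. In BDL the mean of miR-125a-5p stood above that of miR-125b-5p through BDL 4 alone, since 1 of 6 libraries had it higher. The 3p arms came last in both groups. Among them miR-99b-3p was first in BDL (above miR-125a-3p in 6 of 6 libraries), with miR-125a-3p and miR-125b-1-3p within their spread and miR-125b-2-3p lowest. In sham, miR-125b-1-3p, miR-99b-3p, miR-125a-3p and miR-125b-2-3p followed each other within their spread. Within libraries, the first of these was above the next in 3 of 6. The later neighbours kept their order in 5 of 6 libraries each.

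**Figure D1:**
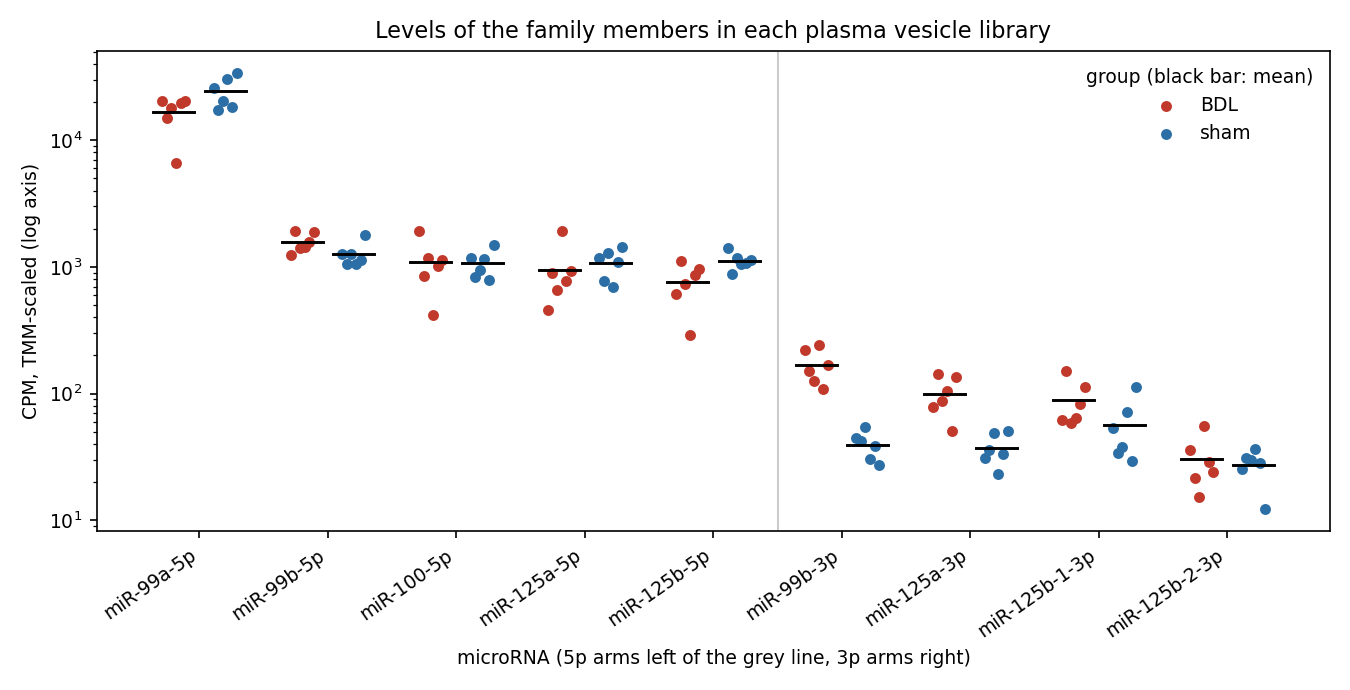
CPM on a log axis for 9 members in each of 6 BDL (left of each pair) and 6 sham libraries; points are libraries and black bars are means. The 5p arms of both groups overlap, whereas for miR-99b-3p and miR-125a-3p every BDL library lies above every sham library.

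BDL was set against sham to ask which members differ in plasma vesicles after the duct is tied. The 3p arms of miR-99b and miR-125a, which flank let-7e in the chromosome 17 cluster, were higher in BDL, and no member passed the test as lower. Of 9 members tested, 2 rose, 0 fell and 7 did not pass (edgeR's quasi-likelihood test, an adjusted p under 0.05 by Benjamini-Hochberg over 341 names), while miR-99a-3p had no counts and could not be tested. Over all 341 names, 42.8% passed the test, 24.6% as higher and 18.2% as lower, so the share of members that rose is near the background. The median log2 fold change was 0.04 over the members and 0.03 over all names tested. None of the 5 5p arms passed, against 18.2% higher and 23.1% lower over all 143 tested 5p names. Their median log2 fold change was -0.21, against -0.24 over those 143 names. Of the 4 tested 3p arms 2 passed as higher, with a median of 1.05. Over all 144 tested 3p names 29.2% were higher and 17.4% lower, with a median of 0.07.

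mmu-miR-99b-3p, the arm usually discarded, had 109, 160 and 240 CPM (lowest, median and highest) in BDL, against 27.4, 40.3 and 54.4 CPM in sham. Every BDL library exceeded every sham library, as did 11.7% of names tested. BDL libraries averaged 169 ± 52 CPM and sham libraries 39.6 ± 9.73 CPM, a 4.2-fold rise with a log2 fold change of 2.07 ± 0.30 (SE; edgeR adjusted p = 7.53e-05). Counts behind these values ran from 30 to 1063 in BDL and from 18 to 128 in sham. The rise was 1.76 ± 0.34 within code ending 24 and 2.41 ± 0.45 within ending 26 (edgeR adjusted p = 0.00321 and 0.00105), and 1.9 without BDL 4, the shallowest library.

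mmu-miR-125a-3p, from the hairpin at the other end of that cluster, had 51, 95.7 and 142 CPM in BDL, against 23, 34.7 and 50.3 CPM in sham. The groups did not overlap, but the gap was narrow: the lowest BDL library was BDL 5 and the highest sham library was sham 6. BDL libraries averaged 99.7 ± 34.9 CPM and sham libraries 37.1 ± 10.6 CPM, a 2.67-fold rise (log2 fold change 1.42 ± 0.32; edgeR adjusted p = 0.00205). Within ending 24 the rise was 0.98 ± 0.35 and within ending 26 it was 1.78 ± 0.44 (edgeR adjusted p = 0.0485 and 0.00559).

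The miR-125b 3p arms tell its loci apart, and neither passed the test. mmu-miR-125b-1-3p, from chromosome 9, had 58.7, 73.1 and 151 CPM in BDL, against 29.2, 45.5 and 113 CPM in sham. The groups overlapped, with sham 6 among the highest, and the log2 fold change was 0.67 ± 0.38 (edgeR adjusted p = 0.162). mmu-miR-125b-2-3p, from chromosome 16, had 15.3, 26.3 and 55.9 CPM in BDL, against 12.2, 29.1 and 36.5 CPM in sham, with a log2 fold change of 0.04 ± 0.35 (edgeR adjusted p = 0.947). The lowest counts behind these names were 8 and 7, both in BDL 4, so their values there are imprecise. mmu-miR-99a-3p was at 0 counts in all 12 libraries, while its 5p partner had 830 to 98557 counts in BDL and 22417 to 75205 in sham. With 3 counts as the limit that 0 allows per library, the 5p arm was at least 276-fold to 32852-fold above the 3p arm in BDL and at least 7472-fold to 25068-fold above it in sham. These bounds cover counting error only. Whether the submitters' processing could assign reads to miR-99a-3p was not tested, and if it could not, the bounds do not hold.

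Among the 5p arms, mmu-miR-99a-5p, the most abundant member, had 6634, 18927 and 20509 CPM in BDL, against 17188, 23297 and 34158 CPM in sham. The groups overlapped, and the low BDL value is BDL 4. The log2 fold change was -0.55 ± 0.28 (edgeR adjusted p = 0.127), with -0.12 ± 0.28 in ending 24 and -1.01 ± 0.43 in ending 26 (edgeR adjusted p = 0.756 and 0.0797). mmu-miR-125b-5p, the lin-4 relative, had 287.7, 803.7 and 1114 CPM in BDL, against 880.7, 1097 and 1400 in sham, and its log2 fold change was -0.55 ± 0.28 (edgeR adjusted p = 0.127). These names were lower and past the threshold under some other settings: miR-99a-5p with upper-quartile scaling, with DESeq2 and with totals that leave out miR-122-5p and the miR-486 5p names (-0.79, -0.69 and -0.62, adjusted p = 0.0389, 0.044 and 0.0437), and miR-125b-5p with DESeq2 size factors, upper-quartile scaling and DESeq2 (-0.70, -0.79 and -0.69, adjusted p = 0.0418, 0.0231 and 0.0234). The scalings also moved the median of all names, which was 0.03 with TMM, -0.11 with DESeq2 size factors and -0.20 with upper-quartile scaling. Relative to these 3 medians miR-99a-5p stood at -0.58, -0.58 and -0.59, and miR-125b-5p at -0.58, -0.59 and -0.59.

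With all 12 libraries, the remaining 5p arms were closer to no change in this test. mmu-miR-99b-5p, the partner arm of miR-99b-3p, had 1235, 1498 and 1928 CPM in BDL, against 1052, 1192 and 1772 in sham (log2 fold change 0.33 ± 0.22; edgeR adjusted p = 0.246). mmu-miR-100-5p had 415.6, 1074 and 1926 CPM in BDL, against 793.2, 1049 and 1490 in sham (log2 fold change 0.03 ± 0.30; edgeR adjusted p = 0.947). mmu-miR-125a-5p had 458.6, 836.8 and 1910 CPM in BDL, against 690.1, 1128 and 1445 in sham (log2 fold change -0.21 ± 0.32; edgeR adjusted p = 0.632). The groups overlapped for each of these names. The value of miR-125a-5p depended on single libraries. BDL 4 had 1910 CPM, and the other BDL libraries had 458.6 to 928.6 CPM. Leaving out 1 library at a time gave log2 fold changes of -0.587 to -0.159 (lowest edgeR adjusted p = 0.0814). In miR-125a-5p the BDL group split by ending: it fell by 0.87 on the log2 scale in ending 24 (edgeR adjusted p = 0.0275) and had 0.35 ± 0.43 in ending 26 (edgeR adjusted p = 0.548), where BDL 4 held the highest value. The difference between endings did not pass for this name (1.26, edgeR adjusted p = 0.174), nor for any of the 9 members, with 2.35% of all names past the threshold.

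**Figure D2:**
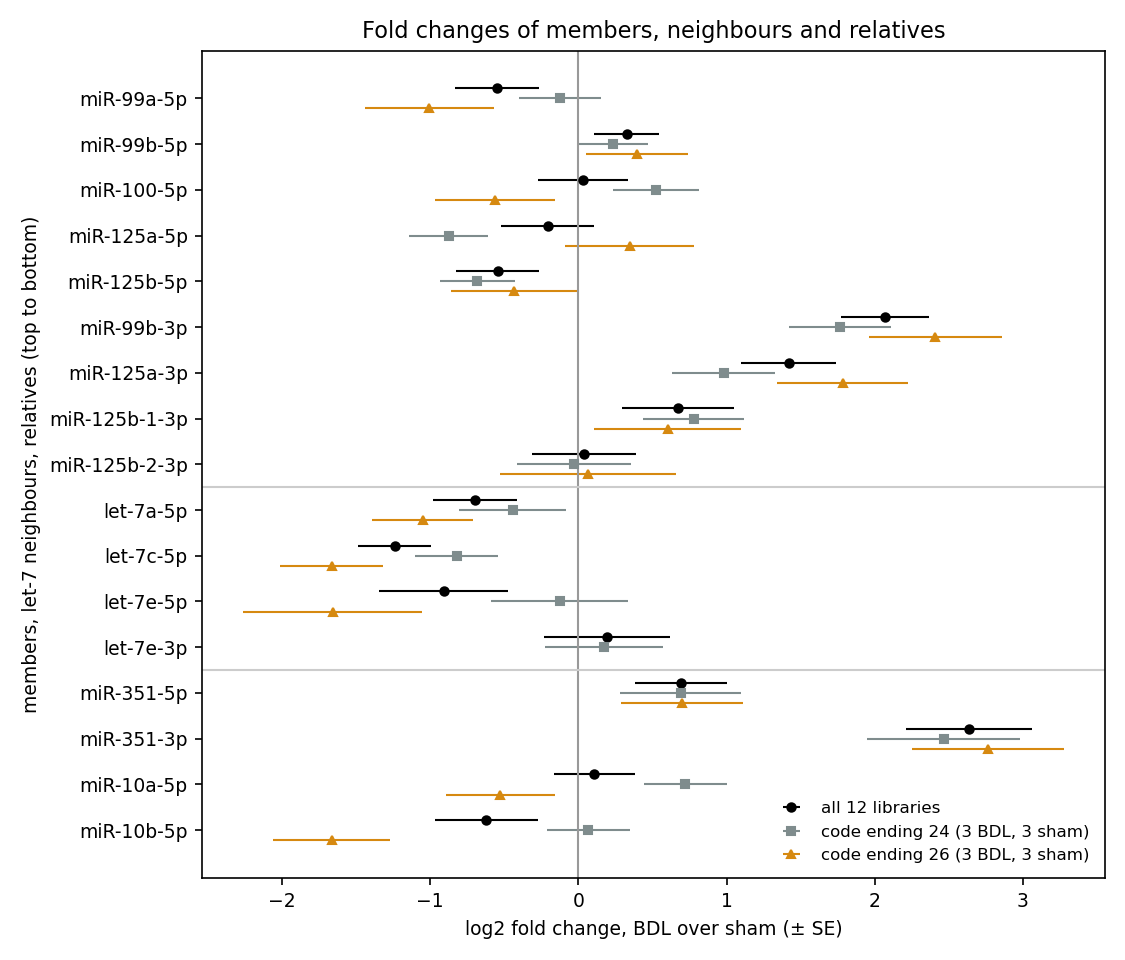
Log2 fold changes, BDL over sham, with SE bars, for 9 members, 4 let-7 cluster neighbours and 4 relatives, in all 12 libraries and within each code ending (3 against 3). miR-99b-3p, miR-125a-3p and miR-351-3p lie to the right in every fit, at 2.07, 1.42 and 2.64 with all libraries; let-7e-3p was not tested in ending 26.

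Ratios of names within a library, which need no scaling factor, asked whether arms and family members kept their proportions. They were taken on counts plus 0.5, so a ratio with a low count still depends on depth (let-7e-5p had 1 count in BDL 4). Of 10 ratios tested, 7 differed between the groups (two-sided exact permutation test over all partings of the 12 libraries, adjusted over the 10 ratios). The ratios share names, some of them called above, so they are not independent. For ratios between different hairpins no share over all names was computed. The arm ratio changed for all 3 names where it could be tested: miR-99b, miR-125a and miR-125b. For miR-125b the arms of both its hairpins are pooled. Over 69 hairpins of all families, the same test, adjusted over the 69, called 16 as lower and 8 as higher in BDL. The pooled miR-125b ratio is not among the 69. For miR-99b, 5p reads per 3p read ran from 5.58 to 14.3 in BDL and from 23.1 to 62.9 in sham, with no overlap. The log2 ratio was 3.25 ± 0.58 in BDL libraries and 4.98 ± 0.52 in sham libraries, with an exact permutation p of 0.00216 (adjusted 0.00722), which is the lowest that 6 against 6 libraries can give. For miR-125a it ran from 5.89 to 17.7 in BDL and from 21.2 to 37.8 in sham, again with no overlap, and the log2 ratio was 3.16 ± 0.69 in BDL libraries and 4.85 ± 0.28 in sham libraries (exact permutation p = 0.00216, adjusted 0.00722). For miR-125b-5p over the sum of its 3p arms, the log2 ratio was 2.61 ± 0.72 in BDL libraries and 3.78 ± 0.45 in sham libraries (exact permutation p = 0.00649, adjusted 0.0162), with overlap. The differences held their direction in both code endings: -1.47 and -2.0 for miR-99b, -1.86 and -1.51 for miR-125a, and -1.18 and -1.17 for miR-125b, in endings 24 and 26. With 3 libraries against 3 no exact permutation test within an ending can pass, so none is given.

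**Figure D3:**
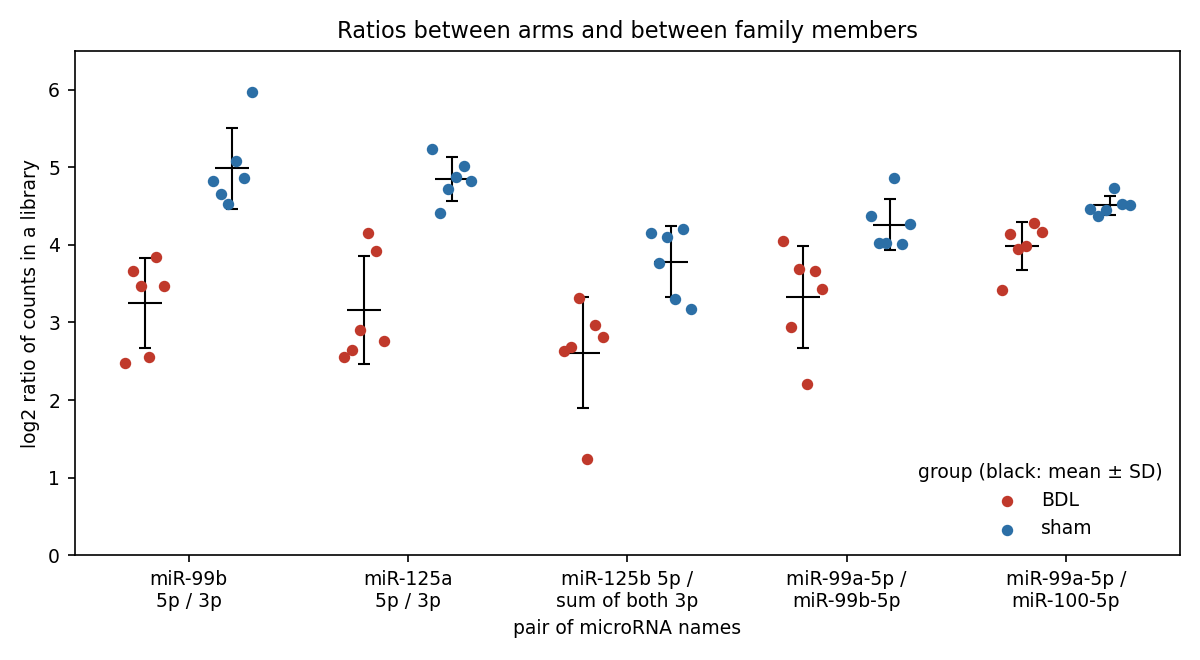
Log2 ratio of counts in each library for 3 arm pairs and 2 pairs of 5p arms, BDL left of sham; points are libraries, black marks are means ± SD (n = 6). All 5 means are lower in BDL, and the groups do not overlap for the arm ratios of miR-99b and miR-125a or for miR-99a-5p over miR-100-5p.

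Arm ratios also moved in hairpins outside these families. Among 69 hairpins with both arms counted, the 5p over 3p ratio fell in 16 (23.2%) and rose in 8 (exact permutation test adjusted over the 69), with a median change of -0.17 on the log2 scale. miR-99b and miR-125a were the 11th and 12th largest falls, at -1.74 and -1.69 (exact permutation test, adjusted p = 0.00879 for both), so the change is not particular to them. In 36 of the 69 hairpins the 5p arm was the more abundant in sham, and the arm that was lesser in sham gained in 11 (15.9%) and lost in 13 (18.8%).

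**Figure D4:**
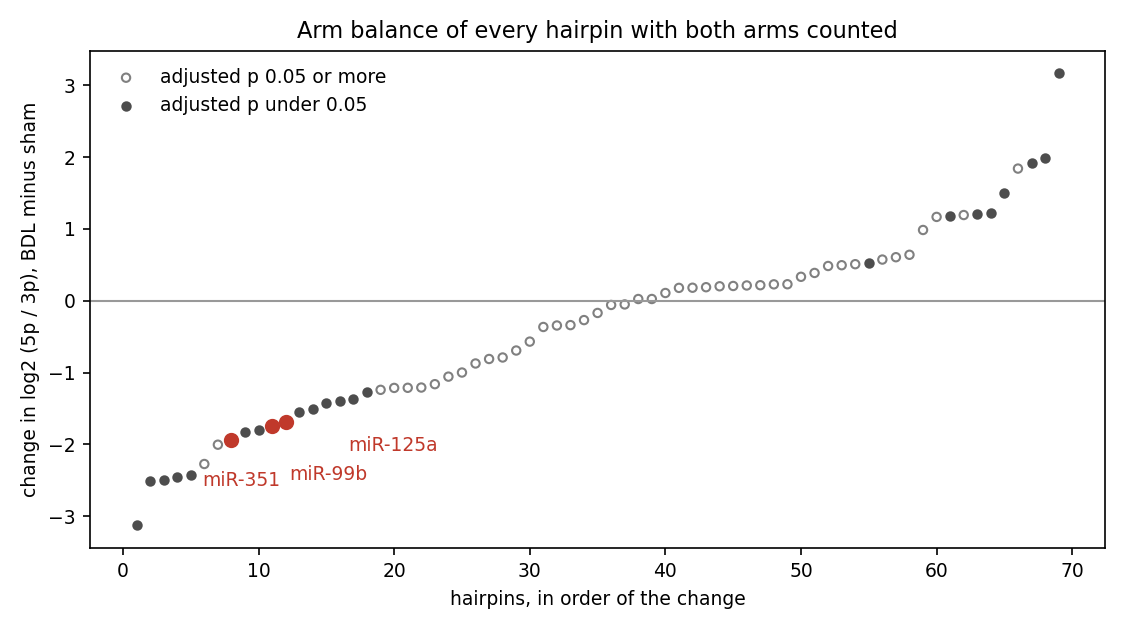
Change in the log2 ratio of 5p to 3p counts, BDL minus sham, for 69 hairpins in order of the change; filled points passed the exact permutation test after adjustment. miR-99b (-1.74), miR-125a (-1.69) and miR-351 (-1.94), in red, lie among the larger falls, and hairpins changed in both directions.

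The proportions between 5p arms moved as well. miR-99a-5p over its near-identical relative miR-100-5p had a log2 ratio of 3.99 ± 0.31 in BDL libraries and 4.51 ± 0.12 in sham libraries (exact permutation p = 0.00216, adjusted 0.00722), without overlap, which is 15.9 miR-99a-5p reads per miR-100-5p read in BDL and 22.8 in sham (geometric means). miR-99a-5p over miR-99b-5p was 3.33 ± 0.66 in BDL libraries and 4.26 ± 0.33 in sham libraries (exact permutation p = 0.00866, adjusted 0.0173). That difference was -0.34 in ending 24 and -1.52 in ending 26. miR-125b-5p over miR-125a-5p was -0.27 ± 1.21 in BDL libraries and 0.09 ± 0.34 in sham libraries (exact permutation p = 0.773), where BDL 4 stood at -2.71 and the other BDL libraries at 0.04 to 0.42. miR-99b-5p over miR-125a-5p, from the same cluster, was 0.87 ± 0.65 in BDL libraries and 0.25 ± 0.25 in sham libraries (exact permutation p = 0.0563, adjusted 0.0703), and without BDL 4 the difference was 0.88 (adjusted p = 0.00541). miR-125b-1-3p over miR-125b-2-3p was 1.56 ± 0.94 in BDL libraries and 0.94 ± 1.15 in sham libraries (exact permutation p = 0.327).

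Among the let-7 neighbours in the clusters none rose: of 6 names 4 were tested, and 1 fell. Over all 341 names tested, 24.6% rose and 18.2% fell, so 1 fall among 4 names is near the background. let-7c-5p, from the hairpin beside Mir99a and from another locus, had 503.5, 784.1 and 1125 CPM in BDL, against 1210, 1856 and 2604 in sham, without overlap, as in 9.38% of names tested (log2 fold change -1.24 ± 0.25; edgeR adjusted p = 8.66e-04). let-7a-5p, which also comes from other loci, had -0.70 ± 0.28 (edgeR adjusted p = 0.0573). That call changed under 10 of 25 alternatives, all lower and past the threshold, among them DESeq2 size factors (adjusted p = 0.0356), upper-quartile scaling (adjusted p = 0.0221), ending 26 alone (-1.05, adjusted p = 0.0247), and leaving out BDL 3 (-1.12, adjusted p = 0.00384) or sham 3 (-0.95, adjusted p = 0.0288). let-7e-5p, which sits between Mir99b and Mir125a, had -0.91 ± 0.43 (edgeR adjusted p = 0.105), with -0.13 in ending 24 (adjusted p = 0.848) and -1.66 in ending 26 (adjusted p = 0.0438). It also passed as lower with upper-quartile scaling (-1.14, adjusted p = 0.0472), with DESeq2 (-1.06, adjusted p = 0.045) and without sham 3 (-1.25, adjusted p = 0.0187), and had -0.56 without sham 6 (adjusted p = 0.245). Its other arm, let-7e-3p, had 0.20 ± 0.42 (edgeR adjusted p = 0.737). These let-7 5p names differ from each other at 1 or 2 bases, so their separate counts are uncertain. The log2 ratio of miR-99a-5p over let-7c-5p was 4.34 ± 0.42 in BDL libraries and 3.69 ± 0.39 in sham libraries (exact permutation p = 0.0281, adjusted 0.0433), and that of miR-99b-5p over let-7e-5p 6.45 ± 0.52 in BDL libraries and 5.37 ± 0.88 in sham libraries (exact permutation p = 0.0303, adjusted 0.0433). Leaving out single libraries ended the first call in 8 of 12 cases (all but BDL 3, BDL 4, sham 3 and sham 4) and the second in 10 of 12 (all but BDL 3 and sham 3). let-7a-2-3p and let-7c-1-3p had at most 7 counts in any library and were not tested.

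Among the relatives, miR-351, an X-linked hairpin whose 5p arm has the miR-125 seed, also had its 3p arm raised. miR-351-3p had 17.9, 51.2 and 91.8 CPM in BDL, against 4.03, 8.69 and 13.4 in sham, without overlap (log2 fold change 2.64 ± 0.42; edgeR adjusted p = 1.83e-04). miR-351-5p had 0.69 ± 0.31 (edgeR adjusted p = 0.0799), with 63.8 to 184 CPM in BDL and 48.8 to 96 in sham. miR-10a-5p and miR-10b-5p, Hox cluster names whose sequence resembles that of miR-99 and miR-100, had log2 fold changes of 0.11 ± 0.27 and -0.62 ± 0.35 (edgeR adjusted p = 0.779 and 0.162). In ending 26 miR-10b-5p had -1.67 (edgeR adjusted p = 0.00411), and without BDL 5 it had -0.97 (adjusted p = 0.0343). miR-670-5p, whose miR-125-like stretch is shifted by 1 base, and miR-670-3p had at most 2 counts in any library and were not tested.

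Base composition differed among the members. GC was 63.6% in both arms of miR-99b, 59.1% in miR-125a-3p and miR-125b-1-3p, 47.6% in miR-99a-3p and 50% in the remaining members; its part in the changes was not tested. Within groups, the deviations of miR-99a-5p from the group mean (log2 CPM, 12 libraries) followed those of miR-100-5p (Pearson r = 0.912, and 0.78 without BDL 4). They ran against those of miR-99b-3p (r = -0.593, and -0.394 without BDL 4). With miR-99b-5p, which has the same seed, r was 0.288, and 0.28 without BDL 4. miR-99a-5p and miR-100-5p differ by 1 base, and the part of reads given to the wrong name in their likeness was not tested. Outside the families, the names most like miR-99a-5p among 332 were miR-5132-5p, miR-378a-5p and miR-381-3p (r = 0.853, 0.848 and 0.838), which had 0.477, 0.448 and 0.40 without BDL 4, so these likenesses rest largely on that library. miR-125a-5p had the highest mean of the miR-125 names over all 12 libraries, which chose it here, but that rank rests on BDL 4: miR-125b-5p was higher in the other 5 BDL libraries and had the higher sham mean (1118 CPM, against 1076 CPM for miR-125a-5p). The names most like miR-125a-5p were miR-615-3p, miR-7225-3p and miR-6411 (r = 0.887, 0.838 and 0.828, and 0.809, 0.645 and 0.657 without BDL 4). The r of miR-125a-5p with its other arm, miR-125a-3p, was 0.49, and 0.601 without BDL 4. With miR-125b-5p it was -0.346 over 12 libraries and 0.765 without BDL 4. These correlations share library, depth and scaling and are descriptions only.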

How the data were processed

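Small RNA libraries from vesicle RNA were made by adapter ligation and PCR, per the labels' protocols, which describe no molecular identifiers. The authors deposited whole-number counts per microRNA name. Cutadapt and STAR are named in the submitters' processing notes; their versions, the genome build and the mismatch limit were not found in the sources used here. The 67 names of other species were left out, and columns were matched to sample titles. Groups follow title and treatment label, although 1 protocol field repeats the ligation text for sham samples.

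Counts were tested with edgeR 4.0.16 (R 4.3.3; quasi-likelihood F test, TMM, filterByExpr) over 341 names with Benjamini-Hochberg adjustment. The biological coefficient of variation was 45.5%. Standard errors are the size of the log2 fold change over the root of F. Floors cover counting error only. Ratios used counts plus 0.5 and were tested where both names had at least 10 counts in at least 6 libraries. Arm ratios of all hairpins were added after the data were seen. The microRNAs named are all members, their cluster neighbours, 6 relatives and, for the most abundant member of each family, the 3 names most alike. Members and lists were chosen with earlier results of these data known. In simulated counts 345 names were tested. Of these, 17 of 20 changed by 2 on the log2 scale and 11 of 27 changed by 1 were recovered, with 1 false call among 298 unchanged names. The simulation had independent libraries, a common dispersion and equally many rises and falls. Its rate of false calls therefore need not hold for these data. If libraries of a group share animals, as a shared first code digit would allow, p-values are in part of technical spread. Alternatives were DESeq2 1.42.0, limma-voom (limma 3.58.1), other scalings and filters, and subsets of libraries.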

Additional observations from a re-analysis of the deposited data

Results flagged for a closer look

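In 54 groups of 6 values (members, neighbours, relatives and ratios), 8 held a library far from the other 5, where chance gives about 1 in 20. The groups share names and libraries and are not independent, and libraries differ in depth, so that rate need not hold here. BDL 4, the shallowest library, accounts for 4 of the 8. Its log2 CPM of miR-99a-5p was 12.7, against 13.9 to 14.3 in the other BDL libraries. Its log2 ratio of miR-125b-5p over miR-125a-5p was -2.71, against 0.04 to 0.42, that of miR-99b-5p over miR-125a-5p was -0.42, against 1.01 to 1.43, and that of miR-125b-5p over its 3p arms was 1.24, against 2.64 to 3.31. In these ratios BDL 4 holds 36 counts of miR-125b-5p and 239 of miR-125a-5p.

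Sham 6 accounts for 3. Its log2 CPM of miR-99b-5p was 10.8, against 10.0 to 10.3 in the other sham libraries, that of miR-125b-2-3p was 3.74, against 4.72 to 5.23, and its log2 ratio of miR-125b-1-3p over miR-125b-2-3p was 3.13, against 0.05 to 1.07; the last pair rests on 74 and 8 counts. The remaining one is let-7a-5p in BDL 3, at 9.75, against 8.24 to 8.69 in the other BDL libraries.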

How the results depend on the processing

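miR-99b-3p and miR-125a-3p were higher and past the threshold under all 25 alternatives tried, with log2 fold changes of 1.76 to 2.41 and 0.98 to 1.78. No member passed as lower in the reported test. In contrast, 1 passed as lower with DESeq2 size factors (miR-125b-5p), in ending 24 (miR-125a-5p), and with totals that leave out miR-122-5p and the miR-486 5p names (miR-99a-5p; chosen after seeing the data), and 2 with upper-quartile scaling and with DESeq2 (miR-99a-5p and miR-125b-5p). Ending 26 alone gave 54 higher names of 265 tested, against 84 of 341. The difference between endings passed in 8 names, in 21 with no count filter, and in 2 to 14 when single libraries were left out.

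Sample numbers did not pair the libraries (correlations of -0.09 to 0.31 for the same number, with 2 of 6 libraries closest to their own number). With the number as a replicate block, 72 names were higher and 61 lower. In the block's sign-flip test the log2 ratios of miR-99b (-1.74), miR-125a (-1.69), miR-125b (-1.18), miR-99a-5p over miR-99b-5p (-0.929) and over miR-100-5p (-0.521) had an adjusted p of 0.0625, the smallest it gave. Before adjustment, these ratios stood at the lowest p that 6 pairs can give in that test. miR-99a-5p over let-7c-5p (0.651) had an adjusted p of 0.179 in the sign-flip test, and miR-99b-5p over let-7e-5p (1.08) had 0.156.

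Within endings 24 and 26, miR-99a-5p over miR-99b-5p differed by -0.338 and -1.52, miR-99b-5p over miR-125a-5p by 1.14 and 0.116, and miR-99b-5p over let-7e-5p by 0.235 and 1.92. The last was 0.995 (adjusted p = 0.0526) with a pseudocount of 1. When single libraries were left out it ran from 0.869 to 1.4, miR-99a-5p over let-7c-5p from 0.532 to 0.778, miR-99b-5p over miR-125a-5p from 0.515 to 0.884, and miR-125b-5p over miR-125a-5p from -0.496 to 0.13 (0.22 in ending 24). The cause was not tested.

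Several names that did not pass the reported test took either sign. miR-100-5p had -0.105 with DESeq2 size factors, -0.203 with upper-quartile scaling, -0.0396 with a filter of 10 counts, -0.103 with DESeq2, -0.0547 with the block, -0.0125 with ending as covariate, -0.564 in ending 26, -0.0741 with the reduced totals, and -0.285 to 0.131 without single libraries. In the same order of settings, miR-125b-2-3p had -0.0948, -0.162, -0.0397 and -0.126, then -0.0594 with no filter, -0.000617 with voom, -0.0272 in ending 24, -0.0934 with libraries summed by first code digit, -0.0538 with the reduced totals, and -0.215 to 0.0938 without single libraries. miR-10a-5p had -0.0139 with DESeq2 size factors, -0.0871 with upper-quartile scaling, -0.0136 with DESeq2, -0.526 in ending 26 and -0.19 to 0.182 without single libraries. miR-125a-5p had 0.347 in ending 26 and -0.587 to -0.159 without single libraries. miR-10b-5p had 0.0663 in ending 24, and let-7e-3p had -0.018 with upper-quartile scaling and -0.131 to 0.401 without single libraries. Depth limits BDL 4, where 1 count is worth more than anywhere else, and names such as miR-125b-2-3p and let-7e-5p.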
